A study of Mus musculus with 71 samples.

Results

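The transcripts of adult haemoglobin and of its erythroid haem synthase were followed in bulk RNA sequencing of brain tissue from C57BL/6J mice given a skin burn, a skin excision or sham handling. They are Hbb-bs and Hbb-bt (the adult beta-globin chains), Hba-a1 and Hba-a2 (the adult alpha-globin chains) and Alas2 (the erythroid form of 5-aminolevulinate synthase). These 5 genes were taken by name, not by a cut on their values, from the 55416 gene identifiers of the count table. They were chosen as a measure of blood left in the tissue, with earlier results of these data known. All 5 had counts in 71 of 71 libraries. On GRCm38 the beta-globin genes lie on the minus strand of chromosome 7, Hbb-bs (ENSMUSG00000052305) at 103826534 to 103828096 and Hbb-bt (ENSMUSG00000073940) at 103812524 to 103813996. The alpha-globin genes lie on the plus strand of chromosome 11, Hba-a1 (ENSMUSG00000069919) at 32283511 to 32284465 and Hba-a2 (ENSMUSG00000069917) at 32296489 to 32297298. Alas2 (ENSMUSG00000025270) lies on the plus strand of chromosome X at 150547375 to 150570638.

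Haemoglobin is a tetramer of alpha and beta chains, each holding a haem. Mature mouse red cells have no nucleus, and the youngest of them, the reticulocytes, still carry globin and Alas2 messenger RNA into the circulation. Alas2 catalyses the rate-limiting first step of haem synthesis in red cell precursors, whereas other cells use Alas1. Globin transcripts have also been described in neurons and glia, so their presence in brain RNA is not by itself a count of blood cells.

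Burned mice had a brass rod of 19 mm, heated to more than 90 °C, applied to the right flank for 10 s, which the labels describe as a full-thickness injury of 7 to 8% of body surface. Excised mice lost full-thickness skin under a 12 mm template on the back, and sham mice were only shaved there. Isoflurane, 0.1 mg/kg of buprenorphine and 5 days of paracetamol in drinking water (1 mg/mL) were common to all groups. Burn and the other procedures thus differ also in where on the body they were made. Libraries numbered 10 for burn, 10 for excision and 9 for sham in the hippocampus, and 10, 10 and 8 in the frontal cortex, both regions being split over batches 1 and 2. Each batch held 5 libraries of a treatment, except for sham in hippocampus batch 1 (4 libraries) and in frontal cortex batch 2 (3 libraries). The piriform cortex gave 5 burn, 4 excision and 5 sham libraries in batch 3. The time from injury to collection, perfusion of the animals, their age and sex, and whether regions share animals are unknown from the labels. Nothing in the labels says that the libraries of a group are separate animals, so p-values measure the spread between libraries, which may be technical. Libraries are named by region, treatment and a number given within them.

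The promoters are shown because the levels of the members varied together across libraries, and to set the globin genes and Alas2 side by side in sequence. Each run holds the 250 bases before the RefSeq start on GRCm38.p6, read 5′ to 3′ on the gene's strand. Capitals mark matches, on either strand, to GATAA (the core of the GATA factor motif), CACCC (bound by the erythroid factor Klf1 and its relatives), CCAAT and the TATA-like ATATAA, and no matches overlapped each other.
Hbb-bs (chr7:103827929-103828178, minus strand): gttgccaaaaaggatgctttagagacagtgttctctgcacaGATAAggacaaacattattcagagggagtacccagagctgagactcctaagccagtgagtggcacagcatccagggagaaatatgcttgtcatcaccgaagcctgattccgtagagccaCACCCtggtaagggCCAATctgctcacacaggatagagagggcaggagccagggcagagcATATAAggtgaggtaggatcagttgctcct
Hbb-bt (chr7:103813924-103814173, minus strand): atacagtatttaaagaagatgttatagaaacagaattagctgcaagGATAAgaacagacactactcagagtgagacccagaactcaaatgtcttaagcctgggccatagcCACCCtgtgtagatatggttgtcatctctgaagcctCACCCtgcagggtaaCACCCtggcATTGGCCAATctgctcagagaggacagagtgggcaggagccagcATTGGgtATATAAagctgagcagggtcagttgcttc
Hba-a1 (chr11:32283422-32283671, plus strand): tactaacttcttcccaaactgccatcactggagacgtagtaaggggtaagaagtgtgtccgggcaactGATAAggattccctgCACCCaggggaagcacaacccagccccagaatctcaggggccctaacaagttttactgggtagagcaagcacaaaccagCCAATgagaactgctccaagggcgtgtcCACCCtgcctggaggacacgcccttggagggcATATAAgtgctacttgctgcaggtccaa
Alas2 (chrX:150547167-150547416, plus strand): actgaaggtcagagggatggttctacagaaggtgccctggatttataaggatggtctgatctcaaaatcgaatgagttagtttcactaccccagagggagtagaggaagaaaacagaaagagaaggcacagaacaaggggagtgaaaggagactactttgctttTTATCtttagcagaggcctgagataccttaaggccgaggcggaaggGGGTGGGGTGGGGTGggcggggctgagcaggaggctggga

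The 3 globin promoters printed held all 4 motifs, with the TATA-like match 30 bases before the start in Hbb-bs, 29 in Hbb-bt and 28 in Hba-a1. Alas2 held 1 GATAA match at 86 bases and 3 CACCC matches at 40, 35 and 30 bases before its start, with 0 CCAAT and 0 ATATAA matches. Among 32817 RefSeq promoters of the same length, 22.6% held GATAA, 52% CACCC, 33.8% CCAAT, 9.1% ATATAA and 0.466% all 4. A match describes the letters only. Hba-a2 is not printed because its window (chr11:32296242-32296491) shares a run of 247 bases with that of Hba-a1.

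The transcripts of the copies of a chain also share much of their sequence. Of all 100-base windows of the annotated transcripts, the length of a read, 49.7% of those of Hbb-bs recur in Hbb-bt and 54.8% of those of Hbb-bt recur in Hbb-bs. Of Hba-a1 windows 63.3% recur in Hba-a2, and of Hba-a2 windows 79.5% recur in Hba-a1. The sources used here do not say how such reads were assigned, so values of a single copy are uncertain. Hbb-bs and Hba-a1 stand below for their chains, since the log2 fold changes of Hbb-bt differed from those of Hbb-bs by at most 0.03, and those of Hba-a2 from those of Hba-a1 by at most 0.01, in the 9 treatment comparisons. Alas2 shares no window with the globins, but 213 of its 2398 windows recur in the neighbouring gene Apex2.

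Total counts ran from 6.65 to 87.8 M (mega) per library, with a median of 57 M. Hippocampus batch 1 was the shallowest, at 6.65 to 34.1 M, and there Alas2 rested on 2, 3 and 4 counts in excision 3, excision 5 and burn 5. Member counts were otherwise ample, with at least 151 counts of Hbb-bs and 182 of Hba-a1 in every library. The title names another treatment than the treatment field in frontal cortex burn 7 and 8, frontal cortex excision 7 and piriform sham 2. The field was used for all of them. The titles of all 14 piriform libraries name the frontal cortex, batch 3, and the tissue field was used for these.

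Hippocampus sham 3, of batch 1, stood apart from every other library in its blood transcripts. Hbb-bs was at 470 CPM (counts scaled to a common library size, with TMM over all 71 libraries) in that library, against at most 383 CPM in the other 70. Hba-a1 was at 915 CPM there, against at most 437 CPM elsewhere. Transcripts of nucleated red cell precursors were found with them. Slc4a1, the red cell anion exchanger, was at 8.01 CPM against at most 0.337 CPM elsewhere, and Gata1, a transcription factor of red cell and platelet precursors, was at 0.971 CPM against at most 0.0339 CPM. So were transcripts of neutrophils and their precursors. S100a9, a neutrophil marker, was at 84.4 CPM against at most 0.405 CPM elsewhere. Mpo and Elane, granule enzymes made in bone marrow precursors, were at 7.96 and 5.25 CPM against at most 0.330 and 0.0621 CPM. All 12 genes of the neutrophil list were highest in this library, as were 15 of the 25 erythroid genes in the table and 7 of 10 platelet markers. None of the endothelial, pericyte, choroid plexus or fibroblast markers was highest there. Alas2, at 3.35 CPM, was only the fifth highest of 71, and at 7.13 counts per 1000 Hbb-bs counts it was low relative to beta-globin.

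The library labelled piriform sham 1 had the second highest globin levels and the highest Alas2 level, 7.08 CPM, of all 71. It also carried markers of dentate granule cells, the principal neurons of the dentate gyrus of the hippocampus. C1ql2, which marks these cells, was at 102 CPM in it, against 0.663 to 3.22 CPM in the other 13 piriform libraries and 53.5 to 163 CPM in the hippocampus (0.471 to 1.93 CPM in the frontal cortex). Prox1, a transcription factor of granule cells, was at 44.4 CPM, against 6.47 to 9.15 CPM in the other piriform libraries. Its summed choroid plexus markers, at 204 CPM, were above those of the other piriform libraries (1.93 to 50.7 CPM). Unlike hippocampus sham 3, its summed neutrophil markers (0.181 CPM) and erythroid markers other than the members (0.686 CPM) lay within the range of the other libraries. The treatment comparisons are given with and without these libraries, and the other results that rest on them where stated.

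Beta- and alpha-globin were present in every library of all 3 regions. The median Hbb-bs level was 72.7 CPM in the hippocampus (n = 29), 94.3 CPM in the frontal cortex (n = 28) and 127 CPM in the piriform cortex (n = 14). Hba-a1 followed the same order of medians, at 69.8, 93.4 and 105 CPM. Mean Alas2 levels ran in that order too, at 1.27 ± 0.67, 1.79 ± 0.82 and 2.57 ± 1.56 CPM (SD). Without hippocampus sham 3 and piriform sham 1 the hippocampus and piriform means of Alas2 were 1.19 ± 0.55 CPM (n = 28) and 2.22 ± 0.89 CPM (n = 13). The piriform cortex was sequenced in a batch of its own, so region and batch cannot be told apart for it, and the ranges of all 3 regions overlapped. Per kilobase of exon, over all 71 libraries, Hba-a2 averaged 145 ± 161 CPM, Hbb-bs 136 ± 92.1 CPM, Hba-a1 126 ± 140 CPM and Hbb-bt 95.5 ± 65.6 CPM (SD), so the order of the 4 globins lay within their spread. Alas2, at 0.719 ± 0.441 CPM per kilobase, was far below all of them. Without the 2 libraries that stood apart, over 69 libraries, the order ran Hbb-bs (124 ± 57.6), Hba-a2 (122 ± 57.6), Hba-a1 (105 ± 50.0) and Hbb-bt (86.9 ± 41.6 CPM per kilobase, SD), again within the spread.

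The other globin genes gave a different picture. Embryonic Hbb-bh1 and the Hbb-bh2 gene had 0 counts in all 71 libraries, Hba-x had counts in only 2 of them, and embryonic Hbb-y reached at most 0.202 CPM. The globins made by neurons and connective tissue cells themselves were all detected. Cytoglobin, Cygb, a widely expressed haem protein, averaged 79.3 ± 9.35 CPM in the hippocampus, 67.9 ± 7.36 CPM in the frontal cortex and 69.4 ± 10.3 CPM in the piriform cortex (SD, n = 29, 28 and 14). Its spread was far narrower than that of the members. Neuroglobin, Ngb, the globin of neurons, averaged 3.99 ± 2.04, 3.88 ± 1.55 and 5.09 ± 2.28 CPM in the same regions.

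Transcripts of red cell precursors other than the members were at low levels. Summed over 7 erythroid markers other than the members, the level was 0.134 to 0.444 CPM in hippocampus burn, 0.287 to 0.493 CPM in hippocampus excision and 0.224 to 12.7 CPM in hippocampus sham libraries. The top of the sham range is hippocampus sham 3, and over the other 70 libraries the sum ran from 0.0533 to 0.736 CPM. It ran from 0.190 to 0.716 CPM in frontal cortex burn, 0.0533 to 0.540 CPM in excision and 0.144 to 0.405 CPM in sham libraries. In the piriform cortex it ran from 0.230 to 0.530 CPM in burn, 0.153 to 0.736 CPM in excision and 0.185 to 0.686 CPM in sham libraries, so that the treatments overlapped in each region. Between 1 and 6 of the 7 markers had a count in each of those libraries, while all 7 had counts in hippocampus sham 3. Rhag, Hemgn and Epb42, which encode red cell membrane or nuclear proteins, were among the markers most often without a count. In bulk tissue, fewer cells of a type and less RNA per cell cannot be told apart.

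**Figure D1:**
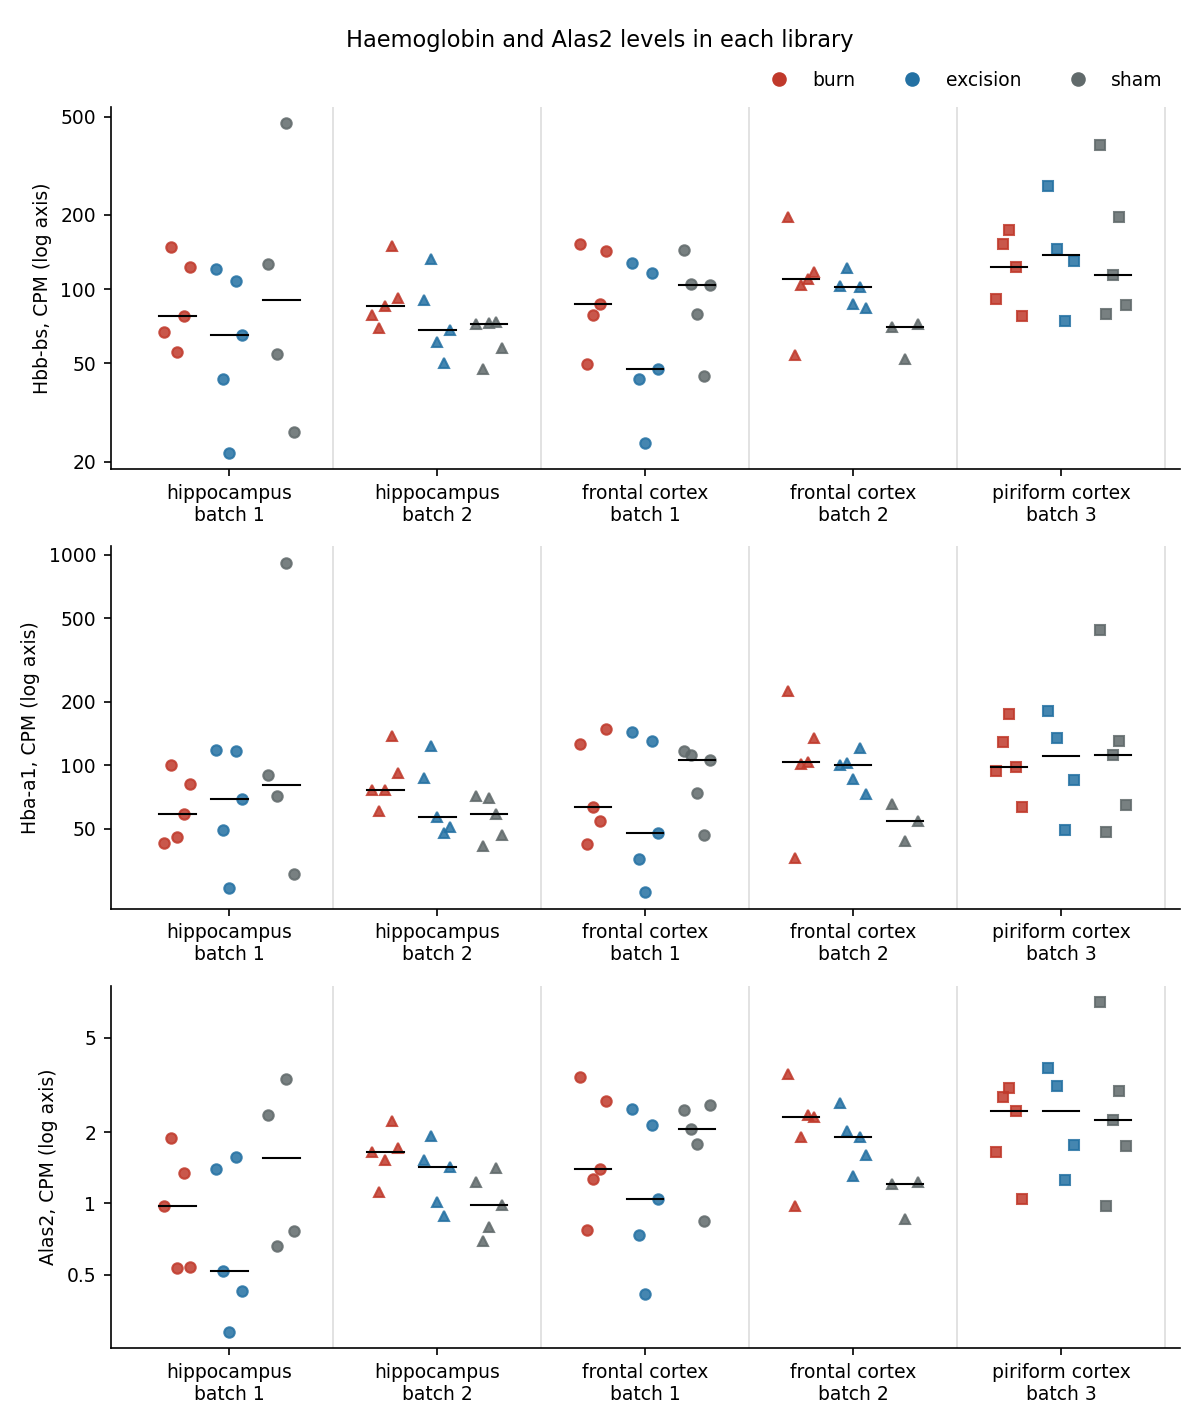
Levels of Hbb-bs, Hba-a1 and Alas2 in each of the 71 libraries, in CPM on a log axis, by region and batch, with burn in red, excision in blue and sham in grey and a bar at each group's median. Hippocampus sham 3 lies above all others for Hbb-bs (470 CPM) and Hba-a1 (915 CPM), and piriform sham 1 is highest for Alas2 (7.08 CPM); the 3 treatments overlap in most columns.

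The levels of the members varied together from library to library. Within each of the 5 region and batch sets, Hbb-bt correlated with Hbb-bs at Pearson's r of 0.998 to 0.999 and Hba-a1 with Hbb-bs at 0.928 to 0.972 (Spearman's rho 0.842 to 0.964, log2 CPM). Alas2, which shares no sequence window with the globins, correlated with Hbb-bs at r = 0.802 in hippocampus batch 1, 0.877 in hippocampus batch 2, 0.975 and 0.949 in frontal cortex batches 1 and 2 and 0.945 in the piriform cortex. All 20 correlations of the family had Benjamini-Hochberg adjusted permutation p of at most 0.00091 (two-sided, 100000 permutations, smallest p possible 1e-05). The weakest, of Alas2 in hippocampus batch 1, was 0.607 without the 2 libraries farthest from the median and 0.720 without sham 3 (permutation p = 0.00554). That set is also the one with the fewest Alas2 counts. Without piriform sham 1 the piriform values were 0.999 for Hbb-bt, 0.913 for Hba-a1 and 0.910 for Alas2. The treatment groups are pooled in these sets, and the points of a set share their batch. Hbb-bt also shares read sequence with Hbb-bs, so the values of these copies are not separate measurements.

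**Figure D2:**
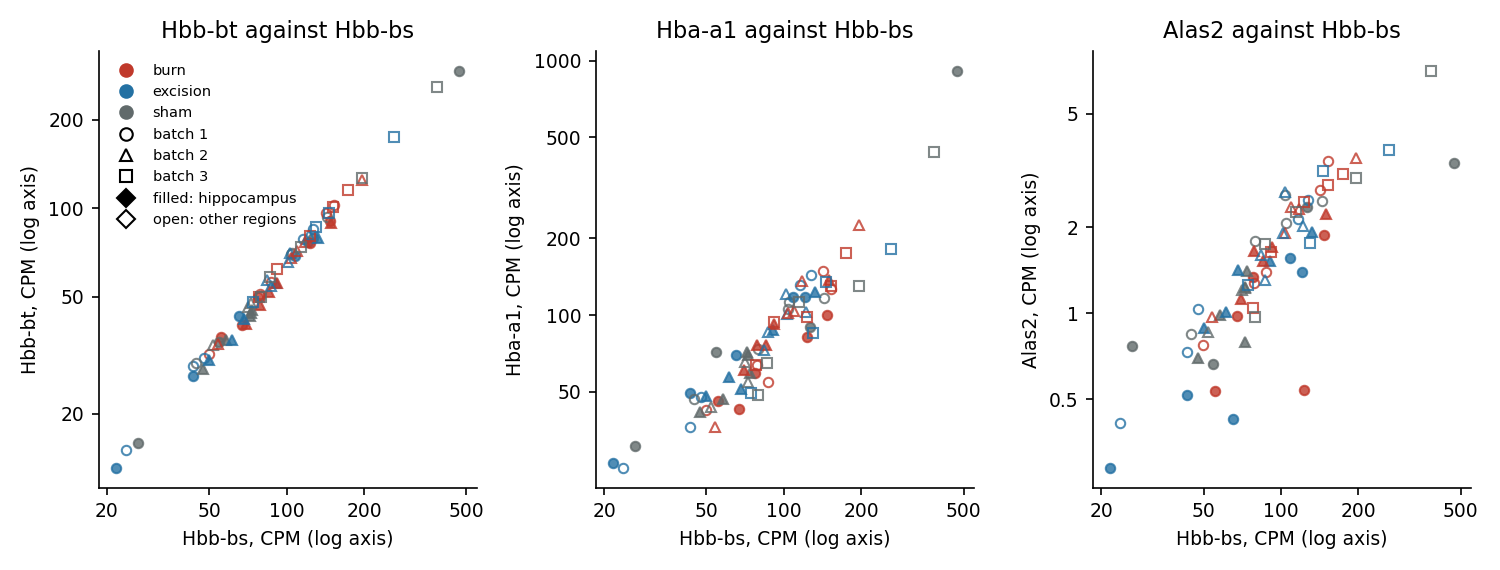
Hbb-bt, Hba-a1 and Alas2 against Hbb-bs in each of the 71 libraries, in CPM with both axes on a log scale; filled points are hippocampus and open points the other regions. Hbb-bt lies on a narrow line, Hba-a1 scatters around one with hippocampus sham 3 above it, and Alas2 follows with the widest scatter in the hippocampus.

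The levels varied widely while the ratios within a chain hardly varied. Within groups of the same region, batch and treatment, the SD of log2 Hbb-bs was 0.868 in the hippocampus (0.685 without sham 3), 0.663 in the frontal cortex and 0.751 in the piriform cortex (0.605 without sham 1). The SD of the log2 ratio of Hbb-bt to Hbb-bs was 0.0392, 0.0374 and 0.0351 in these regions, and that of Hba-a2 to Hba-a1 0.0217, 0.0262 and 0.0139. The copies of a chain share much of their read sequence. Their ratio therefore depends on how shared reads were assigned, which is not stated. Between chains, the ratio of Hba-a1 to Hbb-bs varied by 0.249 (0.189 without sham 3), 0.226 and 0.282. Alas2 relative to Hbb-bs varied by 0.518 in the hippocampus (0.463 without sham 3), 0.197 in the frontal cortex and 0.276 in the piriform cortex.

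As single genes, the members were among the most variable between replicate libraries. Their biological coefficient of variation, from edgeR's dispersion estimate, was 41.4 to 67.8% across members and regions, against a median of 14.0% over all tested genes in the hippocampus, 20.8% in the frontal cortex and 17.9% in the piriform cortex. Without the 2 libraries that stood apart it was 35.3 to 40.3% in the hippocampus and 34.0 to 38.3% in the piriform cortex, against medians of 13.9 and 16.6%. With all libraries it exceeded that of 91.7 to 99.97% of the genes within 2-fold of their level. Region alone accounted for 13.4% of the variance of log2 Hbb-bs over the 71 libraries, region and batch for 14.2%, and region, batch and treatment for 24.5%. For Alas2 these shares were 20.2, 23.4 and 36.8%, and for Hba-a1 6.04, 6.96 and 17.7%. The shares rest on 3, 5 and 15 groups and are not adjusted for that number. They rise as groups are added even where the groups do not differ. Over the 69 libraries without those 2, region, batch and treatment accounted for 29.4% in Hbb-bs, 38.6% in Alas2 and 21.3% in Hba-a1. Most of the variance thus lay between libraries of the same region, batch and treatment.

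Haemoglobin transcripts in the hippocampus were compared between treatments to see whether injury of the skin moved them. Hbb-bs had a lowest, median and highest level of 55.6, 82.0 and 150 CPM in burn libraries, 21.7, 66.5 and 132 CPM in excision libraries and 26.3, 72.2 and 470 CPM in sham libraries. The 3 groups overlapped. The top of the sham range is sham 3; the next highest sham library was at 126 CPM, and 2 burn libraries, at 148 and 150 CPM, lay above that. In edgeR's quasi-likelihood test with batch in the fit, 0 of the 5 members were called at a Benjamini-Hochberg adjusted p under 0.05 in burn against sham, where 1.03% of the 19574 genes tested were called. Hbb-bs had a log2 fold change of -0.18 with an SE of 0.38 (adjusted p = 0.860), and its interval of 2 SE ran from -0.94 to 0.58. Hba-a1 averaged 77.3 ± 28.2 CPM in burn (SD, n = 10) and 155 ± 285 CPM in sham libraries (SD, n = 9), or -0.80 on the log2 scale in the fit (SE 0.49, interval -1.78 to 0.18, adjusted p = 0.403). That sham mean rests on sham 3: without it the sham libraries averaged 60.1 ± 19.4 CPM (n = 8). Leaving sham 3 out turned the sign, to 0.36 for Hba-a1 (SE 0.26, adjusted p = 0.497) and 0.52 for Hbb-bs (SE 0.28, adjusted p = 0.353), neither of them called. Alas2 averaged 1.35 ± 0.56 CPM in burn and 1.36 ± 0.92 CPM in sham libraries, or 0.10 as a log2 fold change with an SE of 0.31 (adjusted p = 0.918).

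Excision against sham in the hippocampus likewise had no called member. Of all tested genes 0% were called, and the log2 fold changes were -0.46 for Hbb-bs (SE 0.38), -0.88 for Hba-a1 (SE 0.48, interval -1.84 to 0.09) and -0.12 for Alas2 (SE 0.32), with edgeR adjusted p of 0.852, 0.852 and 0.936. Without sham 3 these became 0.23, 0.34 and 0.22. In burn against excision, which does not use the sham libraries for its means, 0 of 5 members were called (0.209% of all genes). The log2 fold changes were 0.28 for Hbb-bs (SE 0.37, adjusted p = 0.753), 0.07 for Hba-a1 and 0.22 for Alas2.

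Beside these values, other cells' transcripts differed between libraries. The summed choroid plexus markers, genes of the epithelium that makes cerebrospinal fluid, ran from 35.3 to 6585 CPM in hippocampus burn, 20.9 to 2970 CPM in excision and 37.2 to 5045 CPM in sham libraries. All 10 choroid plexus markers were higher in burn than in sham, with a median log2 fold change of 0.91 and none of them called. None had an unadjusted p under 0.05 in edgeR, where 17.7% of all tested genes did. Without sham 3 all 10 were again higher in burn, with a median of 0.78. Their part in the globin values was not tested. The summed neutrophil markers were at most 0.965 CPM in each library other than sham 3.

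In the frontal cortex the members were compared in the same way. Hbb-bs had a lowest, median and highest level of 49.7, 107 and 196 CPM in burn libraries, 23.7, 94.3 and 127 CPM in excision libraries and 44.6, 75.8 and 144 CPM in sham libraries. The medians ran in that order, but the ranges overlapped throughout. None of the 5 members was called in burn against sham (0.28% of 21077 genes were), in excision against sham (0%) or in burn against excision (0.209%). Hbb-bs averaged 109 ± 45.5 CPM in burn (SD, n = 10) and 83.9 ± 32.3 CPM in sham libraries (SD, n = 8), or 0.35 as a log2 fold change with an SE of 0.29 (adjusted p = 0.655 in edgeR, interval -0.24 to 0.94). Hba-a1 and Alas2 differed by 0.38 (SE 0.35) and 0.32 (SE 0.33) in the same comparison. In excision against sham the values were -0.01 for Hbb-bs (SE 0.29, interval -0.60 to 0.58), 0.12 for Hba-a1 and -0.02 for Alas2. Burn against excision gave 0.36 (SE 0.27), 0.26 (SE 0.32) and 0.34 (SE 0.31).

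One set in the frontal cortex did not overlap. In batch 2, Hbb-bs was at 103, 122, 86.9, 102 and 83.6 CPM in the 5 excision libraries, against 70.5, 51.9 and 72.5 CPM in the 3 sham libraries. All excision libraries lay above all sham libraries for each of the 5 members. Among all 21077 genes, 2.13% did the same, and since the members moved together from library to library, 5 such members are not 5 separate results. In edgeR on batch 2 alone, the log2 fold change was 0.61 for Hbb-bs (SE 0.29), 0.83 for Hba-a1 (SE 0.39) and 0.79 for Alas2 (SE 0.34), each with adjusted p = 0.770. In batch 1 the order was not repeated: Hbb-bs was at 127, 43.2, 23.7, 116 and 47.6 CPM in excision libraries and 144, 105, 79.1, 44.6 and 104 CPM in sham libraries. The titles of 3 libraries of this batch name another treatment: that of excision 7, at 122 CPM, names burn, and those of burn 7 and 8, at 54.1 and 104 CPM, name sham. With treatment taken from the titles, the sham libraries would thus reach 104 CPM, above all 4 remaining excision libraries for Hbb-bs, and the groups would overlap.

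The piriform cortex had the highest median levels but no called member either. Hbb-bs was at 91.4, 152, 174, 123 and 77.8 CPM in burn, 262, 146, 74.3 and 130 CPM in excision and 383, 79.3, 114, 196 and 86.4 CPM in sham libraries. The 3 groups overlapped, and the top of the sham range is piriform sham 1. In each of the 3 comparisons, 0 of 5 members and 0% of 21004 genes were called. Hbb-bs had a log2 fold change of -0.49 (SE 0.41, interval -1.30 to 0.32, edgeR adjusted p = 0.885) in burn against sham and of -0.19 (SE 0.43) in excision against sham. Without piriform sham 1 the sham mean was 119 ± 53.6 CPM (SD, n = 4) and these values turned to 0.06 and 0.36. Alas2 was at 1.64, 2.82, 3.08, 2.46 and 1.04 CPM in burn, 3.74, 3.14, 1.26 and 1.77 CPM in excision and 7.08, 0.972, 2.26, 2.98 and 1.75 CPM in sham libraries. Its groups overlapped as those of Hbb-bs did, and its log2 fold change in burn against sham was -0.46 (SE 0.45), against 0.16 without sham 1. Of the choroid plexus markers, 1 of 10 was higher in burn than in sham and none was called, with a median log2 fold change of -1.21. Their sum was 2.89 to 8.47 CPM in burn, 5.74 to 50.7 CPM in excision and 1.93 to 9.39 CPM in sham libraries other than sham 1, which had 204 CPM. Without sham 1 the median was -0.10, with 4 of 9 tested markers higher in burn. Excision against sham had a median of -0.36 with sham 1 and 0.76 without it. The part of these markers in the globin values was not tested.

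Over all 9 treatment comparisons, 0 of the 5 members had an unadjusted p under 0.05 in edgeR, the lowest being 0.0802 for Hba-a1 in hippocampus excision against sham, and the DESeq2 Wald test called 0 of them as well. The SEs ran from 0.27 to 0.53, and the lowest interval bound was -1.84 on the log2 scale, for Hba-a1 in hippocampus excision against sham. A missing call thus does not show that the levels were alike.

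**Figure D3:**
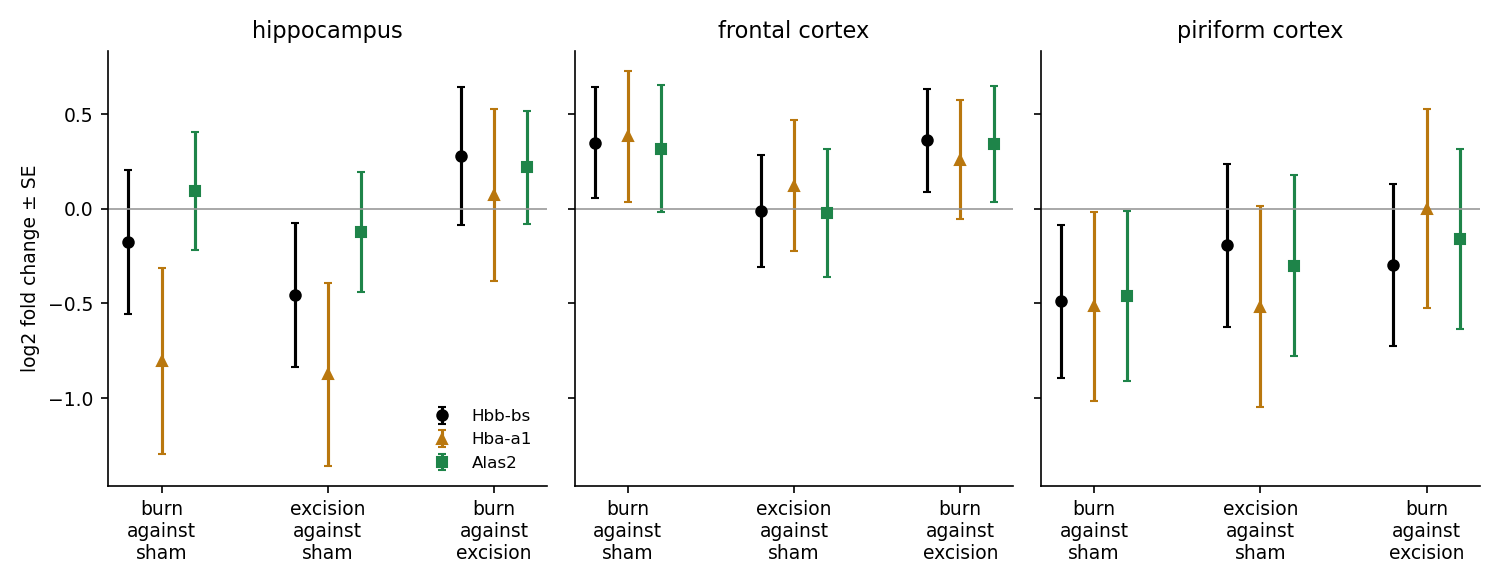
Log2 fold changes of Hbb-bs, Hba-a1 and Alas2, with bars of 1 SE from edgeR, for the 3 pairs of treatments in each of the 3 regions. No value lies more than 2 SE from 0; the lowest values, -0.88 and -0.80 for Hba-a1, are in the hippocampus comparisons that include sham 3.

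Whether the burn difference was the same in both batches was tested as an interaction. In the hippocampus the burn difference of batch 2 minus that of batch 1 was 2.71 on the log2 scale for Hba-a1 (SE 0.81, unadjusted p = 0.0024, edgeR adjusted p = 0.114), 1.42 for Hbb-bs (SE 0.71, adjusted p = 0.319) and 1.31 for Alas2 (SE 0.58, unadjusted p = 0.0326, adjusted p = 0.260). No member was called, and 0.046% of all genes were. Of the 5 members, Hba-a1, Hba-a2 and Alas2 had an unadjusted edgeR p under 0.05. They stood at ranks 407, 424 and 2456 by p among the 19574 genes tested, so many other genes passed that cut too. Hba-a1 and Hba-a2 share much of their read sequence and are not separate results. Without sham 3, which belongs to batch 1, the values were 0.58 for Hba-a1 (SE 0.53), 0.65 for Alas2 (SE 0.58) and 0.09 for Hbb-bs, with 0.0558% of all genes called. In the frontal cortex the interaction was 0.73 for Hbb-bs (SE 0.58), 1.20 for Hba-a1 (SE 0.67) and 1.04 for Alas2 (SE 0.65), with no call and 0% of all genes called. The burn difference in the hippocampus minus that in the frontal cortex was -0.55 for Hbb-bs (SE 0.50), -1.21 for Hba-a1 (SE 0.63) and -0.26 for Alas2 (SE 0.47), again with 0 members and 0% of genes called. Without hippocampus sham 3 these values were 0.16 (SE 0.42), -0.02 (SE 0.45) and 0.11 (SE 0.45), with 0 members and 0% of 21709 genes called.

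The balance of the chains was read as counts of Hba-a1 per count of Hbb-bs in the same library, a ratio that does not depend on library scaling. It averaged 0.959 ± 0.251 in the hippocampus, 0.946 ± 0.148 in the frontal cortex and 0.827 ± 0.167 in the piriform cortex (SD, n = 29, 28 and 14). In hippocampus batch 1 the ratio was 0.637, 0.678, 0.826, 0.761 and 0.667 in burn, 0.975, 1.14, 1.21, 1.09 and 1.07 in excision and 0.710, 1.32, 1.95 and 1.16 in sham libraries. All 5 burn libraries lay below all 5 excision libraries there. The sham libraries spanned both, with sham 3 the highest of all 71. In hippocampus batch 2 the order was not repeated: the ratio was 0.874 to 0.999 in burn and 0.754 to 0.965 in excision libraries, which overlap. The separation in batch 1 was noticed among several region, batch and treatment sets and was not given a test.

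**Figure D4:**
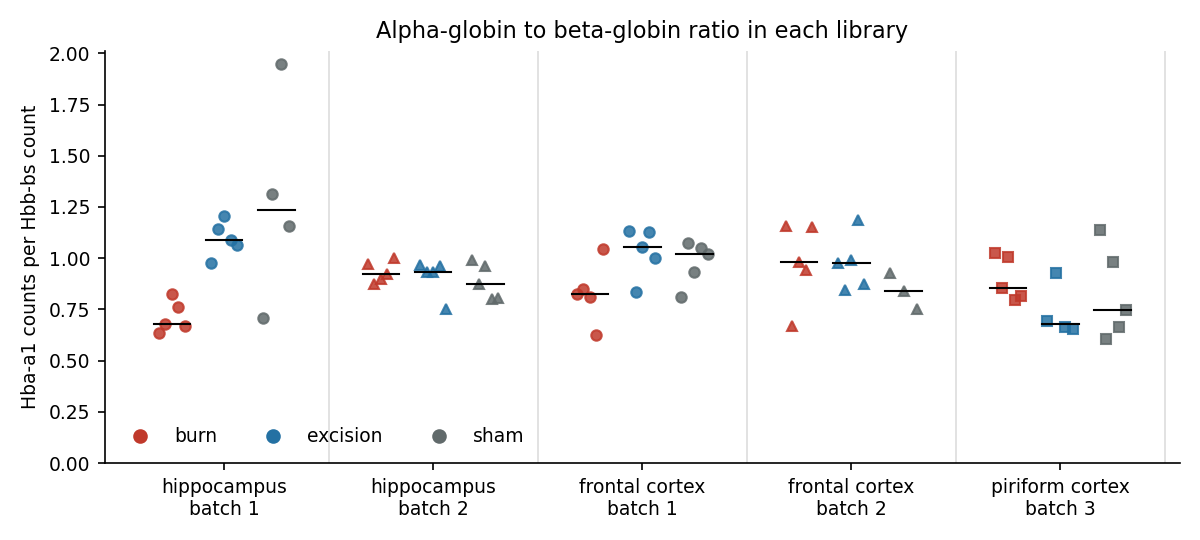
Counts of Hba-a1 per count of Hbb-bs in each of the 71 libraries, by region and batch, on a linear axis from 0, with a bar at each group's median and burn, excision and sham in red, blue and grey. In hippocampus batch 1 the burn libraries lie at 0.637 to 0.826, below all excision libraries; hippocampus sham 3 is the highest point, at 1.95.

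No member was called between the batches. In the hippocampus Hbb-bs averaged 80.1 ± 28.1 CPM in batch 2 (SD, n = 15) and 108 ± 112 CPM in batch 1 (SD, n = 14), or -0.37 as a log2 fold change with an SE of 0.31 (edgeR adjusted p = 0.442). In the frontal cortex it averaged 98.0 ± 37.1 CPM in batch 2 (n = 13) and 89.6 ± 41.7 CPM in batch 1 (n = 15), or 0.11 as a log2 fold change with an SE of 0.24 (adjusted p = 0.830). None of the 5 members was called or had an unadjusted p under 0.05 in either region, while 16.4% of all genes in the hippocampus and 10% in the frontal cortex were called. Without sham 3 the hippocampus value of Hbb-bs was 0.05. The batch difference did not differ between the regions for any member at the threshold (8.32% of all genes called).

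The hippocampus and the frontal cortex, which share batches 1 and 2, were compared next. Alas2 was called lower in the hippocampus, and the globins were not called. Alas2 averaged 1.27 ± 0.67 CPM in the hippocampus (SD, n = 29) and 1.79 ± 0.82 CPM in the frontal cortex (SD, n = 28), or -0.50 as a log2 fold change with an SE of 0.18 (edgeR adjusted p = 0.0157). It was the only member called, 1 of 5, where 61.4% of the 21610 genes tested were called (33.1% lower in the hippocampus). Hbb-bs averaged 93.4 ± 79.8 CPM in the hippocampus and 93.5 ± 39.2 CPM in the frontal cortex, or -0.04 as a log2 fold change with an SE of 0.20 (adjusted p = 0.886), and Hba-a1 differed by 0.03 (SE 0.26, adjusted p = 0.932). Per 1000 Hbb-bs counts there were 15.1 ± 4.92 Alas2 counts in the hippocampus, 18.9 ± 2.71 in the frontal cortex and 17.1 ± 2.93 in the piriform cortex. Without sham 3 the values were -0.24 for Hbb-bs (SE 0.16, adjusted p = 0.207), -0.34 for Hba-a1 (SE 0.17, adjusted p = 0.0801) and -0.58 for Alas2 (SE 0.18, adjusted p = 0.00367), again with Alas2 called and the globins not. Whether Alas2 and the globins differed in their change was not tested. The Alas2 call was lost in sham libraries alone (-0.16, adjusted p = 0.714), in batch 1 alone (-0.57, adjusted p = 0.106) and in batch 2 alone (-0.37, adjusted p = 0.0556). If regions came from the same animals, the libraries of the fit are not independent, which the labels do not settle.

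Library names hold a running number, and 27 of these numbers within a batch occur in both the hippocampus and the frontal cortex, all 27 with the same treatment in both. Hbb-bs was positively correlated between hippocampus and frontal cortex libraries of the same number, with a permutation p under 0.05 only for rho in batch 2. In batch 1 Pearson's r was 0.376 (n = 14, permutation p = 0.187) and Spearman's rho 0.407 (permutation p = 0.152). Without hippocampus sham 3 r was 0.520 (n = 13, permutation p = 0.0689). In batch 2 r was 0.360 (n = 13, permutation p = 0.224) and rho 0.626 (permutation p = 0.0243, adjusted over the 2 batches p = 0.0487). Leaving out the 2 libraries farthest from the median gave r of 0.234 in batch 1 and 0.250 in batch 2, so the linear relation was weaker without them. For the log2 ratio of Hba-a1 to Hbb-bs, r was 0.428 in batch 1 (0.548 without hippocampus sham 3) and 0.561 in batch 2. No p was computed for the ratio, and the treatments are pooled in all of these values. The labels do not say that a running number marks an animal.

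**Figure D5:**
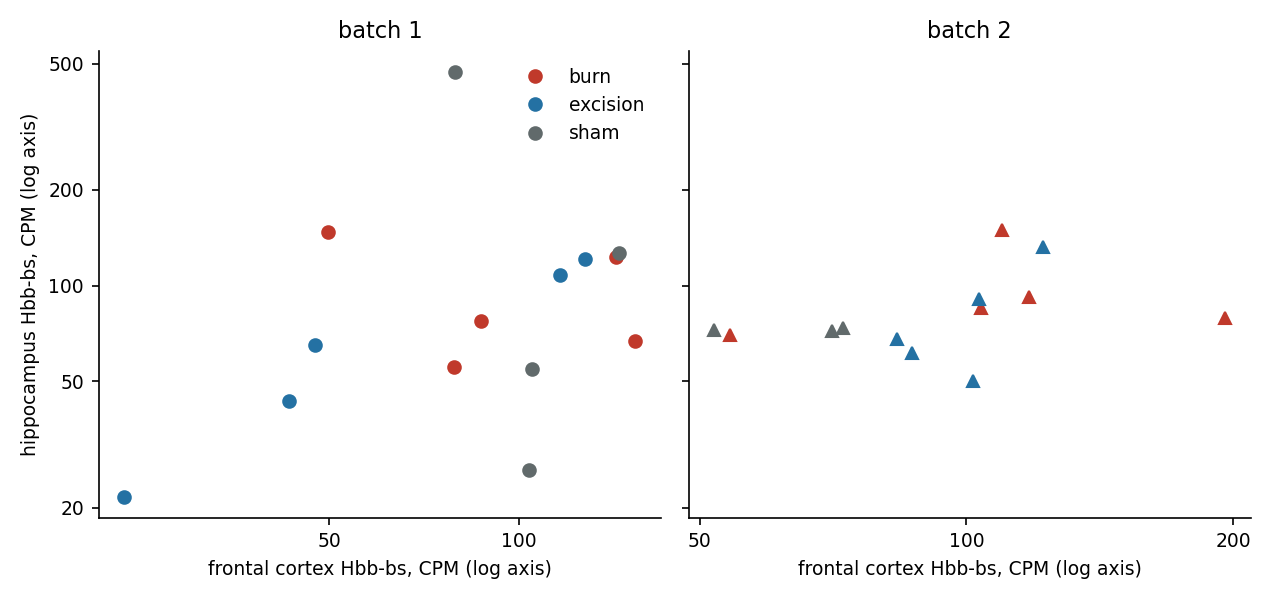
Hbb-bs in the hippocampus library (vertical axis) against the frontal cortex library (horizontal axis) of the same running number, in CPM on log axes, for batch 1 (14 pairs) and batch 2 (13 pairs). The points rise loosely from left to right in both batches; hippocampus sham 3 is the highest point of batch 1, at 470 CPM.

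Few genes outside the members followed them. When each gene was regressed on log2 Hbb-bs within a region, with treatment and batch in the fit, edgeR called 9 of 19574 genes in the hippocampus (0.046%), 5 of 21077 in the frontal cortex (0.0237%) and 6 of 21004 in the piriform cortex (0.0286%). All 5 members were among them in each region, but Hbb-bs is the covariate itself and Hbb-bt shares reads with it. The slope of Hba-a1 was 1.10 (SE 0.06), 1.12 (SE 0.07) and 1.19 (SE 0.09) log2 units per log2 unit of Hbb-bs in the hippocampus, frontal cortex and piriform cortex, and that of Alas2 was 0.72 (SE 0.09), 1.10 (SE 0.08) and 1.05 (SE 0.11). Without sham 3 the hippocampus slopes were 0.85 for Hba-a1 and 0.80 for Alas2 (SE 0.13, edgeR adjusted p = 0.00866). The 4 other genes called in the hippocampus were Ube2c and Birc5, which act in mitosis, Lyz2, the lysozyme of myeloid cells, and Gm8959, with slopes of 0.67, 0.53, 0.35 and 0.58. Without sham 3 only the 5 members were called. In the piriform cortex Gm12079, with a slope of -1.52 (adjusted p = 0.0438), was the sixth. Without piriform sham 1 it and Alas2 were no longer called (Alas2 slope 1.01, adjusted p = 0.0755).

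The genes most like Hbb-bs across libraries were ranked by the mean over the 3 regions of Pearson's r on log2 CPM, after subtraction of the mean of each treatment and batch group. Over 18809 genes the median of this measure was 0.016, and 0.149% of genes exceeded 0.5. The other 4 members led, with 0.999 for Hbb-bt, 0.964 for Hba-a2, 0.963 for Hba-a1 and 0.906 for Alas2. A gap followed, to Gm11681 at 0.657, Aldh4a1 (a mitochondrial enzyme of proline breakdown) at 0.599, Rbm8a (a core protein of the exon junction complex) at 0.575, Rida at 0.560 and Cln6 at 0.553. Without hippocampus sham 3 and piriform sham 1 Alas2 was at 0.886 and Gm11681 at 0.578, and the 4 others named after it at 0.470 to 0.514. Red cell membrane genes that brain cells also express ranked far below: Aqp1, a water channel, was at 0.314, Sptb, a spectrin, at -0.292 and Ank1, an ankyrin, at -0.380.

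The genes around haemoglobin in its pathways were read as lists, each set beside the median of all tested genes. Of 26 erythroid cell genes, 10 passed the count filter in the hippocampus, 12 in the frontal cortex and 13 in the piriform cortex. Their median log2 fold change in burn against sham was 0.13, -0.06 and -0.18 in these regions, against 0.01, -0.02 and 0.00 for all genes. All 13 genes of haem synthesis and breakdown were tested in each region, with medians of -0.00, -0.07 and -0.01. The haemoglobin clearance genes, which take up haemoglobin and haem and store or export iron, had medians of 0.00, -0.09 and -0.15 over 8, 9 and 9 tested genes. The other globins had medians of 0.01, -0.08 and -0.16 over 4, 5 and 5 tested genes. edgeR called 0 genes of all 13 lists in the 9 treatment comparisons, and at most 5 genes of a list had an unadjusted p under 0.05 in any of them, where 3.71 to 17.7% of all tested genes did. At an unadjusted p under 0.05, burn against sham held 2, 2 and 2 erythroid genes, 2, 2 and 0 haem synthesis genes, 0, 3 and 0 clearance genes and 1, 0 and 0 other globins in the hippocampus, frontal cortex and piriform cortex, where 17.7, 13 and 4.27% of all tested genes did. DESeq2 called Slc25a38, the mitochondrial carrier that supplies glycine for haem synthesis, and the B cell gene Cd79a as lower in hippocampus burn than in sham, and in the frontal cortex Tfrc, the transferrin receptor, as higher and Hmox1, the inducible haem oxygenase, as lower in burn than in excision. DESeq2 called 2.82% of all genes it tested in the first of these comparisons and 0.828% in the second.

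Among the markers of other cells, medians in burn against sham, in the hippocampus, frontal cortex and piriform cortex, were -0.21, -0.07 and 0.13 for platelet markers, -0.34, 0.35 and 0.07 for the 1 to 3 neutrophil markers tested, -0.71, -0.41 and 0.05 for B cell markers and -0.09, -0.14 and 0.29 for T cell markers. Monocyte markers had medians of -0.19, -0.18 and -0.07, endothelial markers 0.04, -0.26 and -0.07, smooth muscle and pericyte markers 0.07, 0.00 and -0.04 and meningeal fibroblast markers -0.06, -0.06 and -0.01. edgeR called none of these genes. The endothelial markers, which line the vessels that hold the blood, lay mostly on one side of 0 in some comparisons of each region, none of them called. In the hippocampus all 12 were higher in excision than in sham (median 0.30, 5 with an unadjusted p under 0.05, against 3.71% of all genes), and 11 were lower in burn than in excision (median -0.30, 5 with an unadjusted p under 0.05, against 14.3%). In the piriform cortex all 12 were lower in excision than in sham (median -0.40, 5 with an unadjusted p under 0.05, against 5.25%) and 10 were higher in burn than in excision (median 0.34, 4, against 7.89%). Without piriform sham 1 excision against sham had 9 lower and a median of -0.23. In the frontal cortex 11 were lower in excision than in sham (median -0.24, 0 with an unadjusted p under 0.05, against 4.78%). There 10 were also lower in burn than in sham (median -0.26, 0, against 13%). These frontal cortex comparisons share the sham libraries, and those of each other region share the excision libraries. The part of the markers in the globin values was not tested. On the slope against Hbb-bs, Lyz2 was the only gene of the 13 lists called in any region. The median slope of the erythroid list was 0.04 in the hippocampus, -0.01 in the frontal cortex and 0.04 in the piriform cortex, and that of the 12 endothelial markers -0.01, 0.22 and 0.16. Choroid plexus markers had median slopes of 0.72, 0.28 and 0.80 in these regions, the largest of the lists in the hippocampus and piriform cortex. None of them was called, and medians without the libraries that stood apart were not computed.

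Between the regions, several of the surrounding genes were called. In the hippocampus against the frontal cortex, 9 of 11 tested erythroid genes were called, 5 higher and 4 lower, among them Sptb (0.30), Ank1 (-0.34) and Tfrc (-0.21). In haem synthesis Tspo, a transport protein of the outer mitochondrial membrane (0.47), Cpox (0.24) and Slc25a38 (0.10) were higher in the hippocampus. Of the other globins Hbq1b, Hbq1a, Cygb and Mb were called. These counts stand against the 61.4% of all genes that were called in this comparison.

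Entering the Hbb-bs level of each library in the fit moved the number of genes called for treatment. In hippocampus burn against sham, 150 genes were called with Hbb-bs in the fit and 202 without it, 145 of them in both. In frontal cortex burn against sham, 155 were called with it and 59 without it, and all 59 were among the 155. Burn against excision gave 25 genes with and 41 without it in the hippocampus, and 35 with and 44 without it in the frontal cortex. In the hippocampus without sham 3, burn against sham gave 13 genes with Hbb-bs in the fit and 107 without it, and burn against excision 20 with and 43 without it. The piriform cortex and the excision against sham comparisons held 0 called genes either way. In burn against sham the count was thus lower with Hbb-bs in the fit in the hippocampus and higher in the frontal cortex, and in burn against excision it was lower in both. The cause was not tested.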

How the data were processed

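Counts per gene and library were made by the authors and deposited as whole numbers in 1 table of 71 libraries. Libraries were single-end reads of 100 bp from 1 µg of total RNA, per the labels' protocols. Tools listed in the submitters' processing notes are STAR, fastp, FastQC 0.11.3 and DESeq2 1.24.0, with the build GRCm38. The sources used here do not give the counting program, the strand setting or how reads shared by copies were handled. Symbols came from GENCODE M21 (52135 of 55416 identifiers; the rest held 0.809% of counts) and promoters from RefSeq.

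Libraries were grouped by the treatment and tissue fields. All 270 pairs within groups differed by more than counting error (lowest chi-square per degree of freedom 4.1, 0 identical pairs). Each region was fitted with edgeR 4.0.16 under R 4.3.3 (TMM, filterByExpr, quasi-likelihood F test, Benjamini-Hochberg adjustment over all genes tested), with batch as a term in the hippocampus and frontal cortex. A gene was called at adjusted p under 0.05, and intervals are 2 SE to each side. Levels are CPM with TMM over all libraries, and correlations and slopes use log2 CPM computed from the deposited counts. Correlations used SciPy 1.17.1. The pipeline was tested on simulated data.

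The members and the 13 gene lists (erythroid, haem synthesis, other globin, haemoglobin clearance, platelet, neutrophil, B cell, T cell, monocyte, endothelial, smooth muscle and pericyte, choroid plexus, meningeal fibroblast) were chosen with earlier results of these data known. Ahsp of the erythroid list was not used here. Named were all 5 members in every comparison, called list genes (at most 5 by smallest p) and the 10 genes most like Hbb-bs, of which 1 is not reported here; markers of the libraries that stood apart were chosen after their values were seen. As alternatives, the fits were repeated with DESeq2's scaling, without the count filter, with the Wald test of DESeq2 1.42.0, with no batch term, in each batch alone, with disagreeing labels left out or titles used, with a replicate block, copies summed, shallow libraries left out and each library left out. Leaving out hippocampus sham 3 or piriform sham 1 outside the members' treatment comparisons was chosen after seeing the data.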

Additional observations from a re-analysis of the deposited data

Results flagged for a closer look

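In 63 sets of 4 to 10 libraries (7 measures in 9 groups of region and treatment), the highest or lowest library was checked for a gap to the others that is large for its group; chance gives such a gap in about 1 set in 20. Hippocampus sham 3 stood out of its 9 libraries for Hbb-bs at 470.2 CPM (next 126.3), Hbb-bt at 293.6 CPM (next 78.9), Hba-a1 at 914.8 CPM (next 89.63) and Hba-a2 at 865 CPM (next 89.1). Its ratio of Hba-a1 to Hbb-bs, 1.945, was also apart from the next, 1.315. Its Alas2 level was not flagged. Piriform sham 1 stood out of its 5 libraries for Hba-a1 at 436.7 CPM (next 130.0) and Hba-a2 at 415 CPM (next 123.3). Piriform excision 2 stood out of its 4 libraries by a ratio of Hba-a1 to Hbb-bs of 0.9296 (next 0.6919), with an ordinary Hbb-bs level of 146 CPM. The flags of 1 library are not separate, since its globin levels move together.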

How the results depend on the processing

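Among the alternative log2 fold changes, 825 kept their direction and side of the threshold, 75 turned sign and 3 lost the call. For the runs with copies summed only the direction was compared, since calls were not evaluated there. No member was called in the 9 treatment comparisons under any other alternative run, with a smallest adjusted p of 0.0887 in hippocampus batch 1 alone. Signs turned as follows, and the cause was not tested. Hippocampus burn against sham: Hbb-bs 0.54 and Hba-a1 0.61 in batch 2 alone, Alas2 -0.65 in batch 1 alone, Hbb-bs 0.15 with the replicate block. Hippocampus excision against sham: 0.32, 0.35 and 0.42 for Hbb-bs, Hba-a1 and Alas2 in batch 2 alone, and Alas2 0.093 without the 4 libraries under 10 M counts. Hippocampus burn against excision: Hba-a1 -0.25 in batch 1 alone and -0.043 without those 4 libraries. Frontal cortex burn against sham: Hba-a1 -0.079 and Alas2 -0.050 in batch 1 alone. Frontal cortex excision against sham: Hbb-bs 0.019 with no batch term and 0.61 in batch 2 alone, Alas2 0.79 in batch 2 alone, Hba-a1 -0.24 in batch 1 alone and -0.092 with the replicate block. Piriform burn against excision: Hba-a1 -0.018 with DESeq2 size factors, -0.022 with no filter, -0.019 with DESeq2 and -0.012 with the replicate block, and Alas2 0.029 with treatment from titles. Hippocampus against frontal cortex: Hbb-bs 0.44 in sham alone and 0.16 in batch 1 alone, Hba-a1 -0.30 in batch 2 alone and -0.34 without sham 3, with 0 members called in sham alone and in either batch alone. Batch 2 against batch 1: in the hippocampus Alas2 -0.73 in sham alone, and Hbb-bs 0.046 and Hba-a1 0.10 without sham 3; in the frontal cortex -0.54, -0.73 and -0.82 for Hbb-bs, Hba-a1 and Alas2 in sham alone. Without hippocampus sham 3, chosen after seeing the data, the burn difference in the hippocampus minus that in the frontal cortex turned to 0.16 for Hbb-bs and 0.11 for Alas2.

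Leaving out each library in turn gave, in hippocampus burn against sham, -0.30 to 0.52 for Hbb-bs, -0.96 to 0.36 for Hba-a1 and -0.011 to 0.45 for Alas2. Excision against sham there gave -0.60 to 0.23, -1.02 to 0.34 and -0.24 to 0.22, and burn against excision -0.11 to 0.25 for Hba-a1. Frontal cortex excision against sham gave -0.14 to 0.14, -0.049 to 0.26 and -0.15 to 0.12. Piriform burn against sham gave -0.67 to 0.059, -0.75 to 0.34 and -0.69 to 0.16, excision against sham -0.57 to 0.36, -0.84 to 0.34 and -0.57 to 0.32, and burn against excision -0.53 to 0.086, -0.25 to 0.32 and -0.38 to 0.11. The other treatment comparisons kept their sign.

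The replicate block changed no call of a member. The title numbers of libraries did not pair them: 21 of 63 same-numbered pairs correlated above 0.1 (median 0.013, lowest -0.41), and 68 of 241 other pairs did (median -0.0063). Counts of all called genes moved far more. Hippocampus burn against sham gave 202, against 607 with DESeq2, 1324 in batch 1 alone, 31 in batch 2 alone, 123 with no filter, 106 with no batch term and 50 to 745 with a library left out. Frontal cortex burn against sham gave 59, against 309, 1328, 0, 24 and 26 under these and 19 to 206 with a library left out, 32 without disagreeing labels, 0 with titles and 0 with the replicate block, which outside the hippocampus also leaves those labels out. Hippocampus burn against excision gave 41, against 303, 197, 0, 21 and 8, 21 with the block, 3 without the shallow libraries and 9 to 326 with a library left out. Frontal cortex burn against excision gave 44, against 167, 1318, 0, 12 and 33, 15 without disagreeing labels, 1 with titles, 8 with the block and 10 to 284 with a library left out. Piriform burn against excision gave 0, against 43 with DESeq2 and up to 3 with a library left out, and piriform excision against sham gave 0, against 2 with DESeq2. With Hbb-bs as a covariate hippocampus burn against excision gave 25 and frontal cortex burn against sham 155; with Alas2 as the covariate, 23 and 117. Depth limits Alas2 most, in hippocampus batch 1.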
